A study of Homo sapiens with 15 samples.

Results

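This report describes 10 genes of actin contractility and of SRF- or YAP-driven transcription, TAGLN, ACTA2, TPM1, TPM2, MYL9, CALD1, FLNA, VCL, CCN1 and CCN2, in 2 human gastric cancer cell lines exposed to HER2-directed drugs. The genes were taken from a named list, and all 10 were found among the 18473 genes counted in NCI-N87 cells and among the 18346 genes counted in SNU-484 cells. The list was chosen by pathway with its TAGLN value already known, namely the low level in T-DXd-treated NCI-N87 cells. For these genes the T-DXd comparisons within NCI-N87, and the difference between the lines that contains them, are therefore descriptions without a p-value. Where that difference is said to be called, the call marks an adjusted p under 0.05 and is no independent test. RNA was sequenced from 5 groups of 3 libraries each: NCI-N87 cells given T-DXd, NCI-N87 cells given trastuzumab, NCI-N87 cells given vehicle, SNU-484 cells given T-DXd, and SNU-484 cells given vehicle. Each drug was used at 1 µg/ml for 72 h on wild-type cultures, and the vehicle was an acetate buffer with sorbitol. Trastuzumab is an antibody against the receptor HER2, and T-DXd (trastuzumab deruxtecan) is the same antibody carrying a topoisomerase I inhibitor. NCI-N87 has an amplified HER2 gene and a high HER2 level, and SNU-484 a low level without amplification. The labels call the libraries of a group biological replicates, and each line stands for 1 tumour only. The SNU-484 control libraries are labelled vehicle, while their column names carry the letters iso, so whether the controls of both lines were treated alike cannot be told.

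Actin filaments and myosin form the contractile bundles of a cell, and filamins, tropomyosins, caldesmon and transgelin bind or crosslink these filaments, while vinculin ties them to adhesion sites. When free actin monomers run low, the coactivators MRTFA and MRTFB enter the nucleus and act with SRF on the CArG box of many of these genes. Tension and spreading also let YAP1 and its relative TAZ (encoded by WWTR1) enter the nucleus, where they work through TEAD1 to TEAD4, and the secreted matricellular proteins CCN1 and CCN2 are classical readouts of that arm. ACTA2, TAGLN, CALD1 and MYL9 are best known from smooth muscle and myofibroblasts, and the others are also made by many epithelial cells.

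The libraries held 47990460 to 64623697 counts in NCI-N87 and 46666533 to 66581448 counts in SNU-484. NCI-N87 listed 10 of 10 epithelial marker genes, with a summed level of 16383 to 16796 TPM in T-DXd libraries, 12478 to 12851 TPM in trastuzumab libraries and 12988 to 13010 TPM in vehicle libraries, and 4 of 19 fibroblast, smooth muscle and endothelial markers (COL1A1, DES, CNN1 and VWF), which summed to 3.91 to 4.82 TPM with T-DXd, 1.70 to 2.36 TPM with trastuzumab and 1.32 to 1.93 TPM with vehicle. SNU-484, labelled a gastric carcinoma line, listed only 6 of the 10 epithelial markers, which summed to 24.9 to 31.3 TPM with T-DXd and 30.3 to 33.1 TPM with vehicle. KRT7, KRT18, KRT19 and GRHL2 have no value in the SNU-484 table. SNU-484 listed 11 of the 19 other markers, among them COL1A1, COL1A2, COL3A1, DCN and PDGFRB, at 746 to 917 TPM with T-DXd and 708 to 774 TPM with vehicle, and did not list DES, MYH11, ACTG2 or LMOD1. Both marker sums thus moved with T-DXd in NCI-N87, and their part in the results below was not tested. The SNU-484 T-DXd library 3 stood apart from its group. Its mean distance was 35.3 on the log2 scale over all genes, against 23.3 to 30.3 for the other SNU-484 libraries. Some SNU-484 results are also given without it, and others only with it.

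The 10 genes lie on 9 chromosomes, in RefSeq coordinates on GRCh38: TAGLN at chr11:117199294-117207465, ACTA2 at chr10:88935074-88991337, TPM1 at chr15:63042747-63071915, TPM2 at chr9:35681993-35690056, MYL9 at chr20:36541519-36551447, CALD1 at chr7:134711499-134970729, FLNA at chrX:154348531-154374634, VCL at chr10:73998116-74121363, CCN1 at chr1:85580761-85583950 and CCN2 at chr6:131948176-131951372. Promoter windows from 250 bases before to 50 bases after the start were matched for 7 of the 10, and TAGLN, CCN1 and MYL9 were not matched. Stretches upstream of the start are shown for 3 genes whose windows hold the DNA words of SRF or TEAD, CCN2 and VCL for the TEAD word and FLNA for the SRF word, and the capitals mark the word found.

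CCN2, chr6:131951453-131951572, minus strand: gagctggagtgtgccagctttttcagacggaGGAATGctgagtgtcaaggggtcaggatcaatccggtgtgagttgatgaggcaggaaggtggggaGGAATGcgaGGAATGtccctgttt
VCL, chr10:73997916-73998035, plus strand: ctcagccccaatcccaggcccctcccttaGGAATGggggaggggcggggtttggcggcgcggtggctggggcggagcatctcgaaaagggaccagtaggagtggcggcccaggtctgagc
FLNA, chrX:154374715-154374834, minus strand: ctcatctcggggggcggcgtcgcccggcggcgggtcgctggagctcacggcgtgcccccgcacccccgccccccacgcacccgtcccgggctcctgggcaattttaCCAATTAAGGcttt

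The TEAD word GGAATG, searched on both strands, occurs 3 times in the CCN2 stretch, at positions -169, -104 and -95 from the start, and once in VCL, at -171. It is also in windows of ACTA2 and CALD1, so 5 of the 12 windows of the 7 matched genes hold it, against 14.0% of all 35116 promoter windows. The CArG box was searched only as an exact match to its consensus, so forms with a mismatch were not counted. It was found in 1 of the 12 windows, that of FLNA, at -94, and is in 1.29% of all windows. These are matches of letters and no record of binding.

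In vehicle-treated cells 9 of the 10 genes were lower in NCI-N87 than in SNU-484 and only ACTA2 was higher, by edgeR's quasi-likelihood test with Benjamini-Hochberg adjustment over the 14704 genes tested in both lines. Of all those genes, 43.3% were lower and 42.0% higher in NCI-N87. The median log2 difference was -1.91 over the 10 genes and -0.03 over all genes. The gap was widest for the secreted YAP targets. The line and the handling of its cultures and libraries cannot be told apart here, and in these bulk samples neither can fewer cells that make a gene and less of its RNA per cell.

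CCN2, which encodes connective tissue growth factor, was at 25.9, 24.0 and 25.5 CPM (counts scaled to a common library size, here over both lines) in NCI-N87 vehicle libraries and at 1095, 1136 and 1131 CPM in those of SNU-484. The log2 difference was -5.48 ± 0.06 (SE, n = 3 each), a 44.6-fold lower level in NCI-N87, with an adjusted p of 1.39e-17 in edgeR. CCN1, its relative formerly called CYR61, was at 17.2, 17.2 and 16.1 CPM in NCI-N87 and at 291, 307 and 287 CPM in SNU-484, 17.5-fold lower in NCI-N87 (log2 difference -4.13 ± 0.06). The NCI-N87 libraries of both genes lay far below all SNU-484 libraries.

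MYL9, the regulatory light chain of non-muscle and smooth muscle myosin, averaged 36.3 ± 1.85 CPM in NCI-N87 and 541 ± 19.9 CPM in SNU-484 (SD, n = 3 each), 14.9-fold lower in NCI-N87. The tropomyosin gene TPM2 was 6.62-fold lower, CALD1 (caldesmon, an actin-binding inhibitor of myosin) 3.85-fold, VCL (vinculin) 3.68-fold and TPM1 1.95-fold lower in NCI-N87. TAGLN, an actin-bundling protein of smooth muscle, and FLNA, the main filamin crosslinker, differed least, by -0.48 ± 0.13 and -0.28 ± 0.07 on the log2 scale. ACTA2, smooth muscle actin, was 1.97-fold higher in NCI-N87, at 0.744 ± 0.194 CPM against 0.376 ± 0.115 CPM in SNU-484. That gene rested on 18 to 75 counts per library throughout, so it is the least precise of the 10.

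Per transcript length, using the TPM values that the authors deposited, the order of the genes also differed between the lines. In NCI-N87 vehicle cells FLNA came first at 167 TPM, followed by TPM1 at 93.7, TPM2 at 74.6, VCL at 71.2, MYL9 at 24.5, CCN2 at 20.1, TAGLN at 14.9, CCN1 at 13.8, CALD1 at 1.22 and ACTA2 at 0.798 TPM (means of 3 libraries). The libraries of TPM2 and VCL overlapped in this order, as did those of TAGLN and CCN1, and no other neighbours did. In SNU-484 vehicle cells CCN2 came first at 995 TPM, followed by TPM2 at 567, MYL9 at 404, VCL at 312, CCN1 at 269, FLNA at 227, TPM1 at 199.9, TAGLN at 22.8, CALD1 at 5.24 and ACTA2 at 0.431 TPM, with no overlap between neighbours. ACTA2 and CALD1 were the lowest of the 10 in vehicle cells of both lines.

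**Figure D1:**
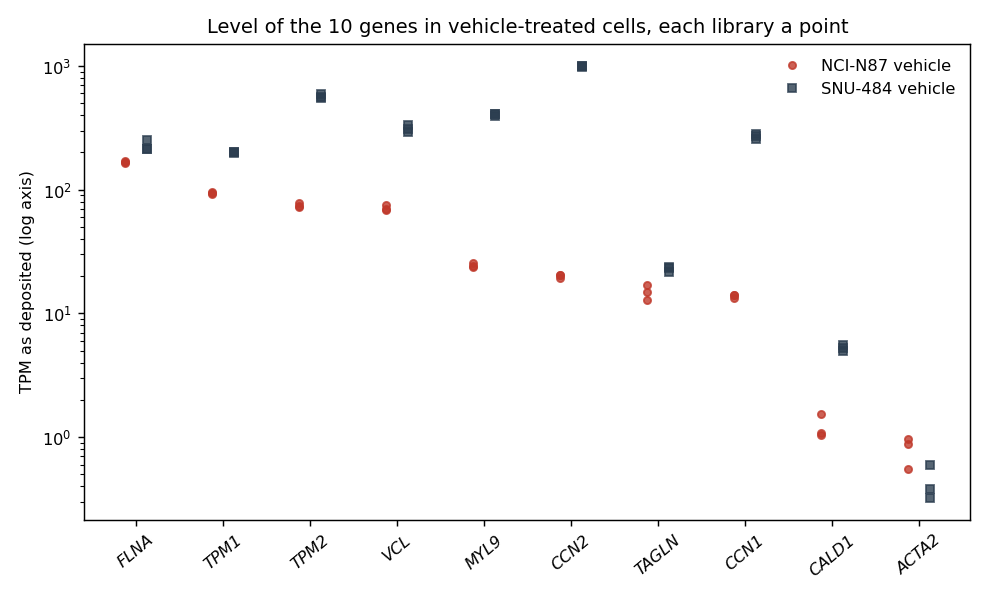
Level of the 10 genes in vehicle-treated NCI-N87 cells (circles) and SNU-484 cells (squares), in TPM as deposited on a log axis, with 1 point per library and the genes in order of their NCI-N87 mean. CCN2 averaged 20.1 TPM in NCI-N87 and 995 TPM in SNU-484, while ACTA2 stayed under 1 TPM in all these libraries.

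In NCI-N87 cells given T-DXd the 10 genes did not move together. Every T-DXd library was above every vehicle library for 7 genes (ACTA2, TPM1, TPM2, MYL9, FLNA, VCL and CCN1), every T-DXd library was below for TAGLN, and the groups overlapped for CALD1 and CCN2. Of all 17394 genes tested in this line, 31.5% were higher and 31.9% lower in every T-DXd library. The median log2 fold change was 0.37 over the 10 genes and -0.01 over all genes. Because the list was made with this comparison in view, these counts are a description.

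TAGLN was at 8.58, 9.45 and 11.3 CPM in T-DXd libraries, against 28.5, 23.8 and 32.4 CPM in vehicle libraries. It was 2.89-fold lower with T-DXd, a log2 fold change of -1.53 ± 0.10 (SE, n = 3 each). It was the only gene of the 10 below its vehicle range in all T-DXd libraries, and its size of change was the largest of the set.

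CCN1 had the next largest difference, at 24.7, 24.3 and 27.9 CPM in T-DXd libraries and 15.9, 15.9 and 14.9 CPM in vehicle libraries, 1.65-fold higher with T-DXd (0.72 ± 0.06 on the log2 scale). CCN2, often measured beside it, was at 22.7, 19.8 and 19.5 CPM with T-DXd and 23.9, 22.2 and 23.6 CPM with vehicle, a log2 fold change of -0.17 ± 0.06 with overlapping groups. The pair of CCN genes therefore lay on opposite sides of 0.

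The structural genes were higher by a similar amount. FLNA was at 904, 915 and 899 CPM with T-DXd against 703, 709.7 and 699.6 CPM with vehicle (log2 fold change 0.36 ± 0.02), and VCL at 288, 291 and 286 CPM against 222, 219 and 223 CPM (0.38 ± 0.03). MYL9 was at 43.5, 44.1 and 45.7 CPM with T-DXd against 35.4, 32.9 and 32.2 CPM with vehicle (0.41 ± 0.04). In these 3 genes the libraries of each group lay close together and well apart from the other group.

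The tropomyosins wrap around actin filaments and control myosin access. TPM2 was at 53.2, 55.6 and 54.6 CPM with T-DXd against 43.8, 40.7 and 41.6 CPM with vehicle (0.37 ± 0.04), and TPM1 at 93.6, 94.0 and 93.2 CPM against 82.7, 77.3 and 81 CPM (0.22 ± 0.03). Their sequences are alike, so reads may be shared between them and with TPM3 and TPM4. ACTA2, at 1.03, 1.28 and 1.01 CPM with T-DXd and 0.750, 0.827 and 0.486 CPM with vehicle, had a log2 fold change of 0.69 ± 0.25, and without vehicle library 3 it was 0.49. CALD1 was at 2.72, 2.26 and 1.65 CPM with T-DXd and 3.19, 2.31 and 2.28 CPM with vehicle (-0.23 ± 0.18), and its groups overlapped. Its value was -0.05 without vehicle library 1, -0.06 without T-DXd library 3 and -0.41 without T-DXd library 1.

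**Figure D2:**
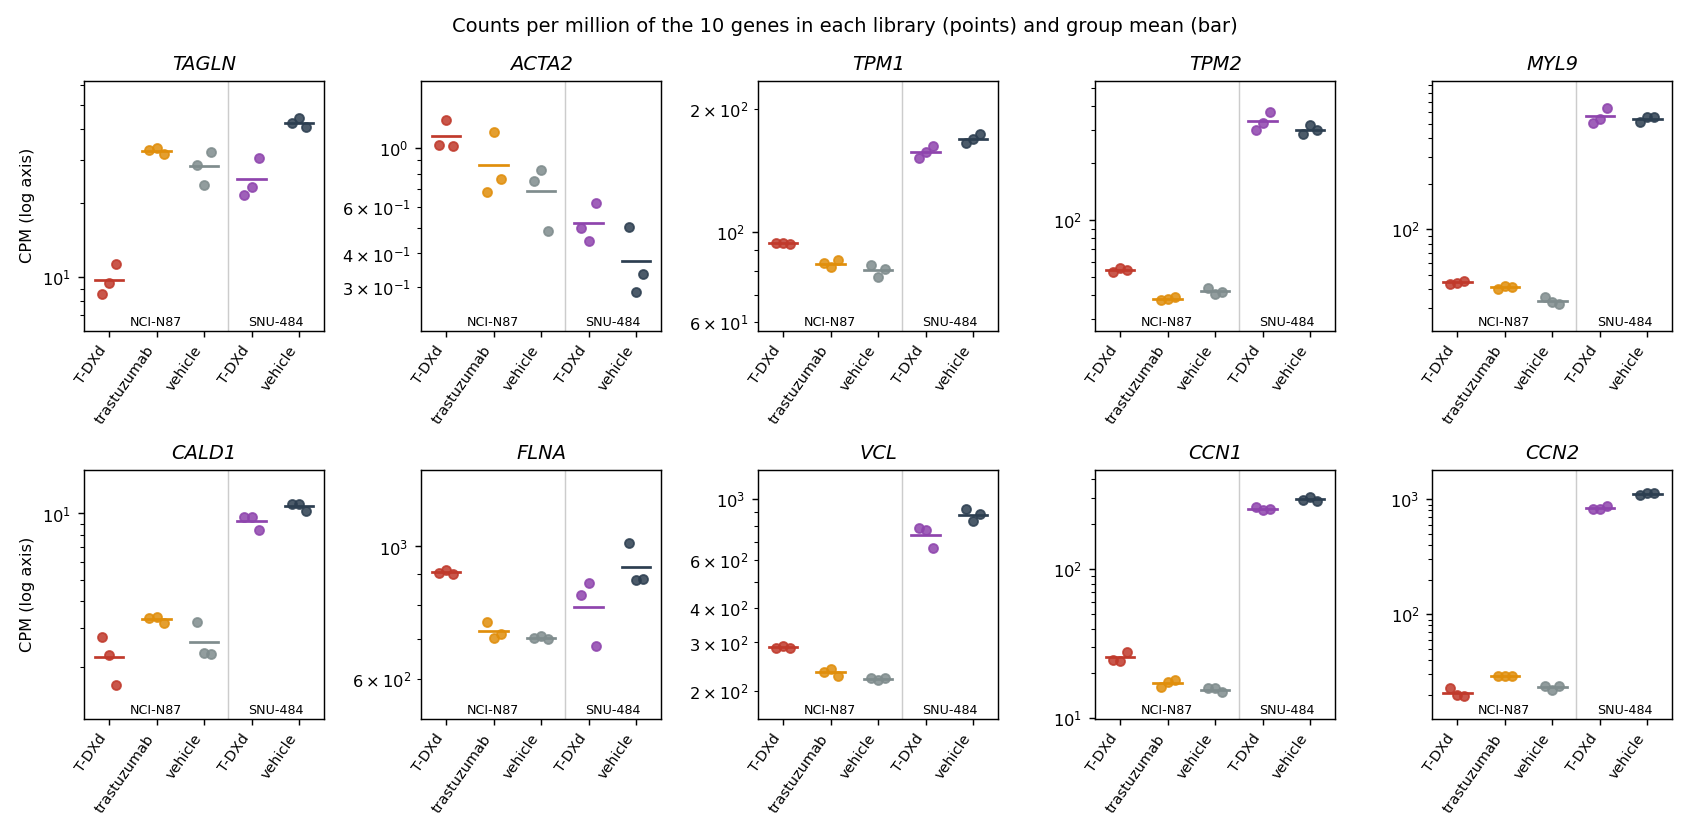
CPM (log axis, scaled within each line) of the 10 genes in each of the 15 libraries (points) with the group mean (bars), T-DXd, trastuzumab and vehicle for NCI-N87 and T-DXd and vehicle for SNU-484. The TAGLN points of NCI-N87 T-DXd cells, at 8.58 to 11.3 CPM, lie below all other groups, and CCN2 in SNU-484 is at 817 to 1135 CPM.

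The antibody without the payload was compared with the same vehicle libraries, which the comparison with T-DXd shares. With trastuzumab 2 of the 10 genes rose and 1 fell, by edgeR's test over 17394 genes, of which 3.65% rose and 6.09% fell. The median log2 fold change was 0.18 over the 10 genes and 0.01 over all genes. CCN2 was at 29.3, 28.9 and 29.1 CPM in trastuzumab libraries and 23.9, 22.2 and 23.6 CPM in vehicle libraries, a rise of 0.32 ± 0.06 on the log2 scale (adjusted p = 0.00202 in edgeR). MYL9 was at 40.2, 42.3 and 41.3 CPM with trastuzumab against 35.4, 32.9 and 32.2 CPM with vehicle, a rise of 0.30 ± 0.04 (adjusted p = 0.000378). The groups did not overlap for either gene.

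TPM2 fell slightly, to 37.8, 37.9 and 38.9 CPM with trastuzumab, against 43.8, 40.7 and 41.6 CPM with vehicle (log2 fold change -0.14 ± 0.04, adjusted p = 0.0308 in edgeR). This call was lost with upper-quartile factors (adjusted p = 0.0502) and without vehicle library 1 (0.144) or 3 (0.0692) or any 1 of the 3 trastuzumab libraries (0.0543 to 0.0933). TAGLN was at 32.7, 33.4 and 31.6 CPM with trastuzumab and 28.5, 23.8 and 32.4 CPM with vehicle, a log2 fold change of 0.20 ± 0.09 that did not pass (adjusted p = 0.180 in edgeR), though without vehicle library 3 it did (adjusted p = 0.0477). VCL (0.08 ± 0.03, adjusted p = 0.0733) and CCN1 (0.15 ± 0.07, adjusted p = 0.163) were higher in every trastuzumab library and did not pass either. VCL passed with DESeq2 (adjusted p = 0.0271), with upper-quartile factors (0.0475) and without trastuzumab library 3 (0.0448). For ACTA2, TPM1, CALD1 and FLNA the groups overlapped, with log2 fold changes of 0.32 ± 0.26, 0.05 ± 0.03, 0.35 ± 0.18 and 0.04 ± 0.02.

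Against trastuzumab, T-DXd-treated NCI-N87 cells had 6 of the 10 genes higher in every library (TPM1, TPM2, MYL9, FLNA, VCL and CCN1) and 3 lower in every library (TAGLN, CALD1 and CCN2), while ACTA2 overlapped. Over all genes, 30.2% were higher and 32.0% lower in every T-DXd library. TAGLN was 3.33-fold lower (log2 fold change -1.74 ± 0.10), and TPM2 1.43-fold and CCN1 1.48-fold higher with T-DXd. CCN2 was at 22.7, 19.8 and 19.5 CPM with T-DXd and 29.3, 28.9 and 29.1 CPM with trastuzumab, 1.40-fold lower (-0.49 ± 0.06). MYL9 differed less between the drugs, by 0.11 ± 0.04. These values rest on the same T-DXd libraries as those against vehicle and carry no p-value.

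**Figure D3:**
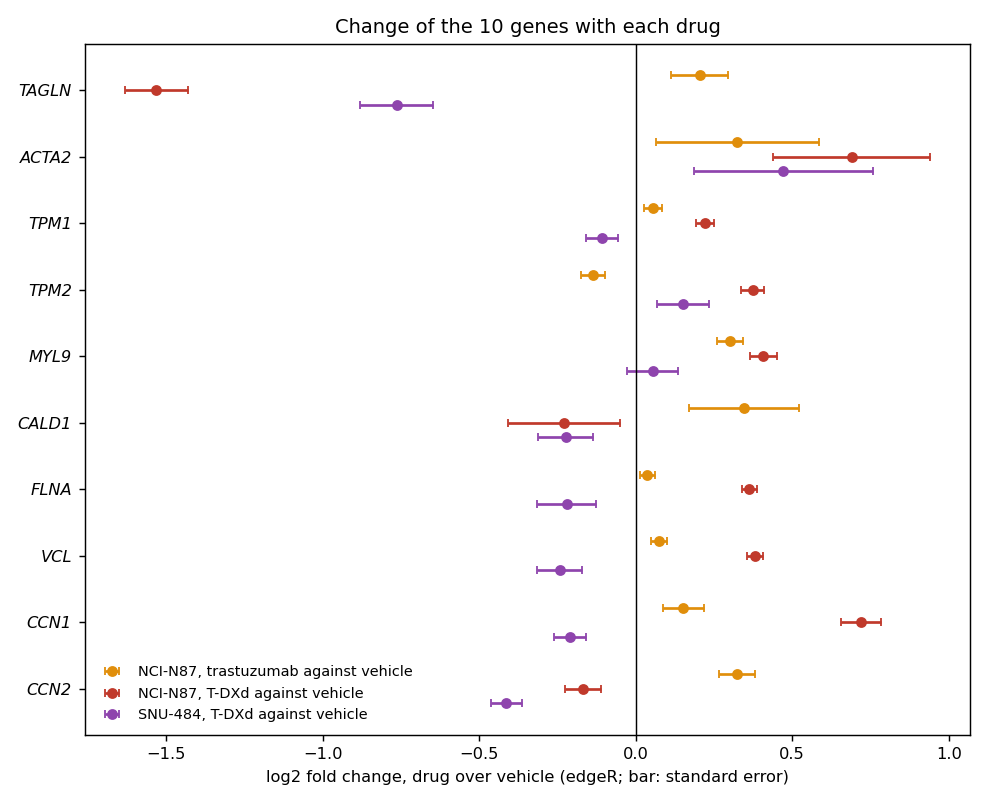
Log2 fold change of the 10 genes over vehicle with its standard error (bars), for trastuzumab (orange) and T-DXd (red) in NCI-N87 and T-DXd in SNU-484 (purple). TAGLN is at -1.53 with T-DXd in NCI-N87 and -0.76 in SNU-484, while VCL and CCN1 are above 0 in NCI-N87 and below 0 in SNU-484.

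In SNU-484 cells given T-DXd 4 of the 10 genes fell, TAGLN, VCL, CCN1 and CCN2, and 0 rose, by edgeR's test over 16876 genes, of which 9.65% fell and 11.2% rose. At an unadjusted p under 0.05 the counts were 6 lower and 0 higher, and DESeq2 called 4 lower and 0 higher. The shares of all genes under these other rules are not given here, so these counts cannot be set against them. In 7 of the 10 genes every T-DXd library was below every vehicle library, as in 19.9% of all genes, none was above throughout (21.2% of all genes), and ACTA2, TPM2 and MYL9 overlapped. The median log2 fold change was -0.22 over the 10 genes and 0.00 over all genes.

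TAGLN was at 21.5, 23.3 and 30.4 CPM in T-DXd libraries and 42.3, 44.3 and 40.7 CPM in vehicle libraries of SNU-484. Its log2 fold change was -0.76 ± 0.12 (adjusted p = 0.00336 in edgeR), a 1.70-fold lower level with T-DXd. Library 3 was the highest of the T-DXd group, and without it the log2 fold change was -0.92 ± 0.06 (adjusted p = 3.19e-07). This call stayed under an adjusted p of 0.05 with each library left out in turn, the highest being 0.0231.

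CCN2, the most abundant of the set in this line, was at 821, 817 and 879 CPM with T-DXd and 1085, 1135 and 1132 CPM with vehicle. Its log2 fold change was -0.41 ± 0.05 (adjusted p = 0.00119 in edgeR), and with each library left out the adjusted p was at most 0.0136. CCN1 was at 259, 250.2 and 254 CPM with T-DXd and 289, 307 and 287 CPM with vehicle, a log2 fold change of -0.21 ± 0.05 (adjusted p = 0.0205 in edgeR). Both CCN genes were lower in all 3 T-DXd libraries.

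VCL fell to 789, 775 and 663 CPM with T-DXd, against 919.5, 835 and 883 CPM with vehicle (log2 fold change -0.24 ± 0.07, adjusted p = 0.0453 in edgeR). Without T-DXd library 3, where VCL was lowest, it was -0.17 ± 0.04 (adjusted p = 0.0106). The calls of VCL and CCN1 were lost without any 1 of the 3 vehicle libraries or without T-DXd library 2, with adjusted p-values of 0.0807 to 0.156 for VCL and 0.0626 to 0.105 for CCN1, and the VCL call also with upper-quartile factors (0.0546) and with no filter on low counts (0.0643).

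The other structural genes did not pass in SNU-484. FLNA was at 829, 869.9 and 683 CPM with T-DXd and 1013, 880.4 and 882 CPM with vehicle (log2 fold change -0.22 ± 0.09, adjusted p = 0.130 in edgeR), with library 3 again the lowest. Without that library the value was -0.12 ± 0.06 (adjusted p = 0.115). TPM1 (-0.11 ± 0.05) and CALD1 (-0.22 ± 0.09) were lower in every T-DXd library. TPM1 passed once T-DXd library 3 was left out (-0.13 ± 0.04, adjusted p = 0.0361 in edgeR). CALD1 was then at -0.16 ± 0.09 and did not pass. MYL9 was at 506, 539.8 and 634 CPM with T-DXd and 513, 553 and 552 CPM with vehicle (0.05 ± 0.08), and without T-DXd library 3 its sign turned (-0.04 ± 0.05). TPM2 was at 300.4, 326 and 373 CPM with T-DXd against 285, 316 and 299 CPM with vehicle (0.15 ± 0.08, and 0.06 ± 0.05 without T-DXd library 3). ACTA2 had a log2 fold change of 0.47 ± 0.29, which ran from 0.31 without vehicle library 2 to 0.73 without vehicle library 1. T-DXd library 3 was the lowest of its group for CALD1, FLNA and VCL and the highest for TAGLN, ACTA2, TPM1, TPM2, MYL9 and CCN2.

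The change with T-DXd in NCI-N87 was set against that in SNU-484 as an interaction over the 12 T-DXd and vehicle libraries. Its NCI-N87 part was in view when the genes were listed, so for the 10 genes it is a description. The calls for these genes mark an adjusted p under 0.05 and are no independent test. In edgeR's fit the T-DXd effect was called higher in NCI-N87 than in SNU-484 for 6 of the 10 genes and lower for 1, where 22.5% of the 14704 genes tested were called higher and 19.4% lower. The largest difference was that of CCN1, at 0.95 ± 0.07 on the log2 scale. VCL followed at 0.65 ± 0.08 and FLNA at 0.61 ± 0.10. Without SNU-484 T-DXd library 3 they were 0.54 ± 0.05 and 0.48 ± 0.06. For CCN1, VCL and FLNA the fold changes were above 0 in NCI-N87 and below 0 in SNU-484.

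MYL9 (0.38 ± 0.10), TPM1 (0.35 ± 0.06) and CCN2 (0.27 ± 0.08) also had a higher effect in NCI-N87. The CCN2 fold change was nearer 0 in NCI-N87 than in SNU-484, and with upper-quartile factors the difference was 0.20 and was not called. TAGLN alone had a lower effect in NCI-N87, by -0.74 ± 0.19, and by -0.62 ± 0.14 without SNU-484 T-DXd library 3. TPM2 (0.25 ± 0.10) was not called, and was called without SNU-484 T-DXd library 3 (0.30 ± 0.06) or vehicle library 1 (0.28). The differences of ACTA2 (0.24 ± 0.37) and CALD1 (0.02 ± 0.23) were within their errors.

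**Figure D4:**
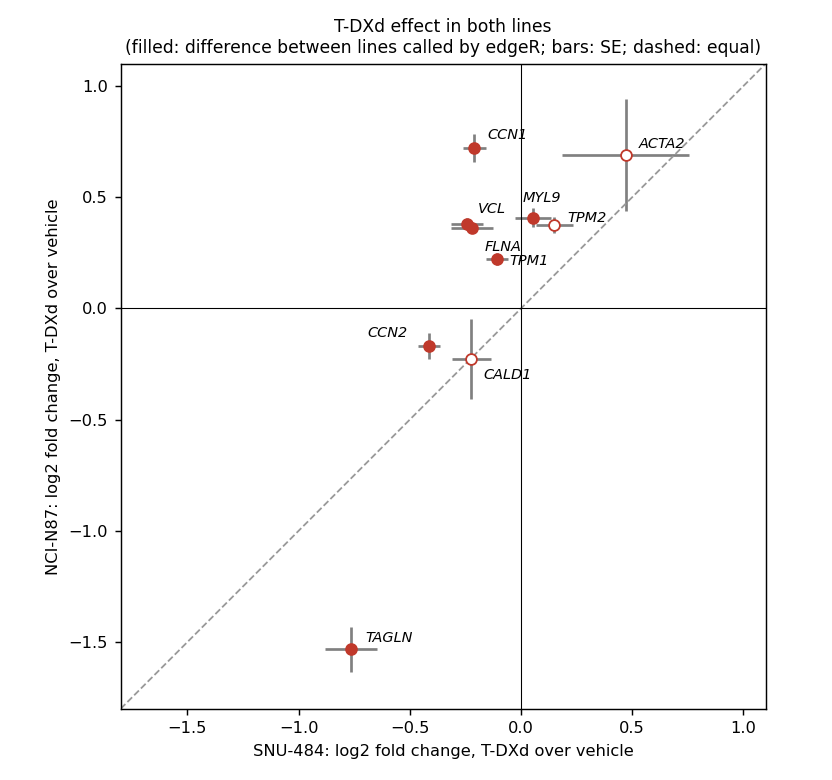
Log2 fold change of T-DXd over vehicle in NCI-N87 (vertical) against that in SNU-484 (horizontal) for the 10 genes, with standard errors, filled where edgeR called the difference between the lines and open where it did not. The dashed line marks equal change, and 8 genes lie above it while TAGLN lies below it and CALD1 on it.

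The factors upstream of these genes were compared in the same fits, from lists that hold none of the 10. These lists, too, were chosen with earlier results of these data known. Their calls and p-values, here and below, are therefore no independent test. In T-DXd-treated NCI-N87 cells MRTFA rose, at 70.0, 74.5 and 72.5 CPM against 48.5, 50.9 and 49.6 CPM with vehicle (log2 fold change 0.54 ± 0.04, adjusted p = 1.3e-09 in edgeR), while its partner SRF fell to 39.5, 40.3 and 40.9 CPM, against 52.1, 49.1 and 50.02 CPM with vehicle (-0.33 ± 0.04). MRTFB fell as well (-0.19 ± 0.04). On the Hippo side WWTR1 rose by 0.50 ± 0.04 and YAP1 did not pass (-0.02 ± 0.02, adjusted p = 0.475 in edgeR). TEAD1 (0.11 ± 0.02) and TEAD3 (0.14 ± 0.03) rose and TEAD2 (-0.21 ± 0.06) and TEAD4 (-0.53 ± 0.05) fell, so the regulators of each arm moved in both directions.

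With trastuzumab only TEAD4 of these 9 factors passed (-0.18 ± 0.05, adjusted p = 0.0394 in edgeR). In SNU-484 cells given T-DXd only YAP1 passed, at 325, 305 and 272 CPM with T-DXd against 370.4, 359 and 338 CPM with vehicle (-0.24 ± 0.07, adjusted p = 0.0445). In vehicle cells WWTR1 was higher in NCI-N87 than in SNU-484 (log2 difference 3.79 ± 0.08) and YAP1 was lower in NCI-N87 (-1.02 ± 0.06). The T-DXd effect differed between the lines for SRF (-0.18 ± 0.05), MRTFA (0.52 ± 0.06), YAP1 (0.24 ± 0.08), WWTR1 (0.48 ± 0.11), TEAD1 (0.38 ± 0.14) and TEAD4 (-0.37 ± 0.07).

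Of 149 related genes in 7 lists, 6 of which are described here, 143 were tested in NCI-N87, and with T-DXd 82 of them rose and 30 fell, where 29.1% of all genes rose and 29.5% fell. Their median log2 fold change was 0.12, against -0.01 over all genes. In the actin contractility list 21 of 35 tested genes rose and 6 fell. PDLIM7, a filament-associated adaptor, rose (0.71 ± 0.03). Profilin (PFN1, -0.43 ± 0.02) and calponin 3 (CNN3, -0.40 ± 0.04) fell.

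In the focal adhesion list 14 of 24 rose and 6 fell with T-DXd in NCI-N87, where 29.1% of all genes rose and 29.5% fell. TNS4, a short tensin of epithelial cells, was at 363, 408 and 369 CPM with T-DXd against 88.7, 91.0 and 88.6 CPM with vehicle (2.09 ± 0.04), and TNS1 rose by 1.12 ± 0.08, while ILK, the integrin-linked kinase scaffold, fell (-0.51 ± 0.04). In the SRF and coactivators list 2 of 7 rose and 3 fell. In the Hippo pathway list 11 of 20 rose and 4 fell, with the scaffold WWC1 at 0.71 ± 0.03.

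Of 18 further YAP targets tested, 13 rose and 2 fell with T-DXd in NCI-N87, where 29.1% of all genes rose and 29.5% fell. F3, which encodes tissue factor, rose by 0.68 ± 0.04 and FJX1 fell by 0.93 (log2 fold change -0.93 ± 0.10). In the TGF-beta pathway list, whose ligands are known inducers of several of the 10 genes, 11 of 20 rose and 5 fell, with SMAD3 at 0.88 ± 0.03 and the decoy receptor BAMBI at -0.48 ± 0.03.

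With trastuzumab 10 of the 143 related genes rose and 9 fell, where 3.65% of all genes rose and 6.09% fell. Of the YAP targets 5 of 18 rose, among them IGFBP3 (0.22 ± 0.04), and 0 fell, also at an unadjusted p under 0.05 and with DESeq2. The other lists had 0 to 2 genes higher and 0 to 4 lower, and TNS4, which rose with T-DXd, fell with trastuzumab (-0.22 ± 0.04). No gene of the SRF list passed, at an unadjusted p under 0.05 and with DESeq2 as well.

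In SNU-484 20 of 143 related genes rose and 20 fell with T-DXd, where 11.2% of all genes rose and 9.65% fell. Without T-DXd library 3, 27 rose and 32 fell of 144 tested, where 16.4% of all genes rose and 15.7% fell. The actin contractility list had 1 of 36 higher and 10 lower, with a median log2 fold change of -0.11 against 0.00 over all genes. Without that library the list had 4 higher and 14 lower, with a median of -0.09. The cytoplasmic actins ACTB (-0.38 ± 0.05) and ACTG1 (-0.37 ± 0.06) were the members of that list with the largest falls, and they are near-identical in sequence and may share reads. In NCI-N87, ACTB was at 3923, 4103 and 4213 CPM with T-DXd and 4090.2, 4018 and 4126 CPM with vehicle, overlapping groups. ACTG1 there was at 1402, 1374 and 1401 CPM with T-DXd against 1349, 1306 and 1348 CPM with vehicle, higher in every T-DXd library.

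The YAP target list had 6 of 20 higher and 1 lower in SNU-484, where 11.2% of all genes rose and 9.65% fell. The number lower was 3 without T-DXd library 3, 4 with DESeq2 and 5 at an unadjusted p under 0.05, with 6 higher each time. For DESeq2 and the unadjusted p, the shares of all genes are not given here, for this list and those below. ANKRD1, a direct YAP target and muscle ankyrin repeat protein, was the one that fell with all libraries in edgeR, at 48.0, 46.3 and 49.3 CPM with T-DXd against 105, 109 and 96.5 CPM with vehicle (-1.11 ± 0.06, adjusted p = 5.35e-05 in edgeR), while CCDC80 (0.82 ± 0.11) and NT5E (0.71 ± 0.10) rose. The focal adhesion list had 4 of 22 higher and 4 lower, and the Hippo list 1 of 20 higher and 2 lower. The TGF-beta list had 6 of 20 higher, among them LTBP2 (1.02 ± 0.12), and 0 lower, where 2 were lower at an unadjusted p under 0.05 and 1 with DESeq2. The SRF list had 0 of 7 in either direction, with 2 lower at an unadjusted p under 0.05 and 1 lower with DESeq2.

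**Figure D5:**
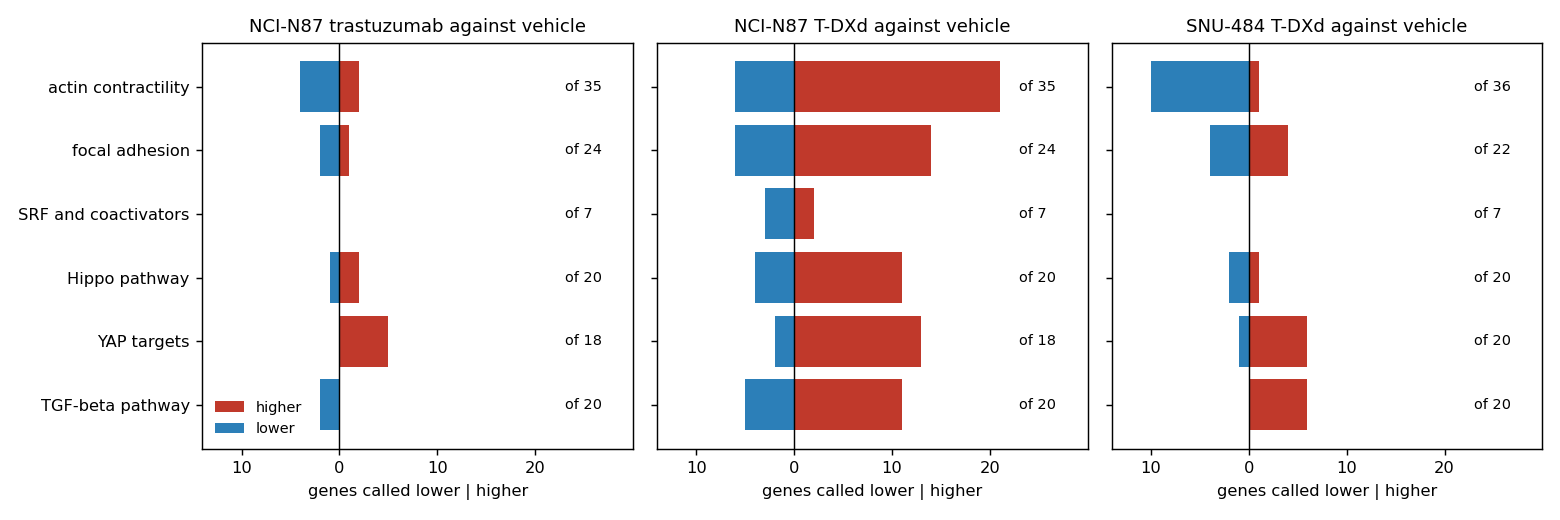
Number of related genes called higher (red, to the right of 0) and lower (blue, to the left) over vehicle in each of 6 lists that hold none of the 10 genes, for trastuzumab in NCI-N87, T-DXd in NCI-N87 and T-DXd in SNU-484, with the number tested at the right. The actin contractility list has 21 higher and 6 lower of 35 with T-DXd in NCI-N87 and 1 higher and 10 lower of 36 in SNU-484.

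The T-DXd effect on the related genes also differed between the lines, higher in NCI-N87 for 59 of 140 and lower for 19, where 22.5% and 19.4% of all genes were. In the actin contractility list 19 of 35 were higher and 1 was lower. FLNC, the muscle filamin, had the largest difference of that list (1.29 ± 0.18). Among the YAP targets ANKRD1 differed by 1.82 ± 0.15 and the receptor AXL by 2.48 ± 0.17, while NT5E (-0.996 ± 0.10) and CCDC80 (-1.02 ± 0.19) went the other way. FLNC, ANKRD1, AXL and CCDC80 were low in NCI-N87, with vehicle means of 1.05, 1.26, 0.598 and 1.55 CPM (scaled within each line). In SNU-484 vehicle cells they averaged 27.6, 103.6, 23.9 and 8.62 CPM. For CCDC80 the T-DXd and vehicle libraries of NCI-N87 overlapped. The NCI-N87 side of the differences of FLNC, ANKRD1, AXL and CCDC80 therefore rests on low levels.

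The genes whose level across libraries was most like that of TAGLN were found separately in each line by Pearson's r of log2 CPM, as a description, since the libraries share their treatment groups. Over the 9 NCI-N87 libraries they were BNIP2 (r = 0.996), CNNM1, AMN1, WNT11 and LHPP, and over the 6 SNU-484 libraries VAT1 (r = 0.999), TKT, FARSA, PRPF19 and C11orf58. No gene was in both sets of 5. Within the 10 genes, TAGLN ran against FLNA (r = -0.96), TPM2 (-0.95), VCL (-0.93) and CCN1 (-0.91) and with CCN2 (0.77) in NCI-N87, while in SNU-484 it ran with CCN2 (0.97), TPM1 (0.92) and CCN1 (0.89). For CCN1 genes among the 5 nearest were GDF15 (r = 0.992), IL32, TMEM175 and A4GALT in NCI-N87 and MAPRE1 (r = 0.998), MRPL42, MSMO1, CEBPZOS and INIP in SNU-484.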

How the data were processed

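Libraries were made with a stranded mRNA kit. Per the submitters' processing notes, the authors used Trimmomatic 0.38 for trimming, HISAT2 2.1.0 for alignment to GRCh38 and StringTie 2.1.3b for counting. The annotation release and the use of strand in counting are not given in the sources used here. The deposited counts are whole reads per gene and library, and the deposited TPM values were used only for levels between genes and for marker sums, in place of the CPM per kb planned first. A gene is listed in a table only with 1 count or more in all of that table's libraries. The authors' own comparison columns (21 for NCI-N87 and 8 for SNU-484, with fold changes and p-values) and 18 and 12 further per-sample columns were not used.

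The test was that of edgeR 4.0.16 in R 4.3.3 (filterByExpr, minimum count 10 and total 15, TMM, quasi-likelihood, adjusted p under 0.05 by Benjamini-Hochberg over all genes tested). The 9 NCI-N87 libraries were fitted together, the 6 SNU-484 libraries alone, and 12 libraries of both lines over shared genes. All 10 genes passed the filter, the lowest count being 18. The standard error is the log2 fold change over the square root of F. P-values set the difference between groups against the spread between these libraries, which is estimated in part over all genes. DESeq2 1.42.0, RLE and upper-quartile factors, other filters, a replicate block, 2-group fits and each library left out were the alternatives. The fits were tested on simulated data. Promoters are from RefSeq (GRCh38.p14). The 10 genes, the related lists (actin contractility, focal adhesion, SRF and coactivators, Hippo pathway, YAP targets, TGF-beta pathway and 1 other) and the tests were chosen with earlier results of these data known. All 10 genes are reported. In each related list the genes to name were, per comparison, up to 2 called genes in each direction with the largest log2 fold change at an average log2 CPM of at least 2, of which some are printed, and SRF, its coactivators MRTFA and MRTFB, YAP1, WWTR1 and TEAD1 to TEAD4. ACTB and ACTG1 in NCI-N87 were added after their values were seen. The 5 genes most like TAGLN and CCN1 were ranked on log2(CPM + 0.5). Some items that these lists and rules name are not reported here.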

Additional observations from a re-analysis of the deposited data

Results flagged for a closer look

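In edgeR's interaction fit the effect of T-DXd was called different between the lines for 7 of the 10 genes, given here as the log2 effect in NCI-N87 minus that in SNU-484. Of all 14704 genes 22.5% were called higher and 19.4% lower in NCI-N87, and the NCI-N87 side of this contrast was known when the genes were listed, so the count is a description and no independent test. The difference was 0.95 for CCN1, 0.65 for VCL, 0.61 for FLNA, 0.38 for MYL9, 0.35 for TPM1 and 0.27 for CCN2, all higher in NCI-N87, and -0.74 for TAGLN, lower in NCI-N87. The lines also differ in HER2 level and marker genes, which cannot be told apart from the line.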

How the results depend on the processing

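The numbers of genes called over vehicle depended on single libraries where effects were small. With 1 library left out in turn, the calls with trastuzumab numbered 993 to 1820 (1695 in all libraries), those of related genes higher 5 to 13 and of the 10 genes lower 0 to 1, and in SNU-484 with T-DXd all calls numbered 1466 to 5477 (3526 in all libraries), related genes higher 9 to 27 and lower 6 to 32, and the 10 genes lower 2 to 5. The highest count of all calls in SNU-484 was without T-DXd library 3, and the lowest without vehicle library 2. With trastuzumab, DESeq2 called 17 related genes higher and 15 lower (10 and 9 in edgeR), and upper-quartile factors 18 higher and 0 of the 10 genes lower. Signs turned for MYL9 in SNU-484 without T-DXd library 3 (-0.043, with the others left out up to 0.12), for the ACTA2 difference between lines without SNU-484 vehicle library 1 (-0.021, with the others left out up to 0.40) and for the CALD1 difference with upper-quartile factors (-0.045) and with libraries left out (-0.16 to 0.20). The cause was not tested. Replicate numbers did not pair the samples in NCI-N87, where correlations of same-numbered libraries ran from -0.02 to 0.10. In SNU-484 they were 0.33, -0.13 and 0.32, so whether the numbers pair those samples is not settled. With the replicate number as a block, 38 related genes were lower in SNU-484 (20 without it), 4768 genes were called there, FLNA passed (adjusted p = 0.0302 in edgeR), and the TPM2 difference between the lines was called. No block was run for the vehicle levels. Of the values of single genes under an alternative, 912 stayed the same, 17 lost the call and 10 gained it. A further 8 turned sign and 3 moved by more than the spread. Where a test was used, staying the same meant keeping direction and side of the threshold. In the T-DXd comparisons within NCI-N87, which carry no p-value, it meant a move smaller than the spread between libraries. Low counts limit ACTA2 and CALD1.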
